A study of Mus musculus with 10 samples.

Results

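Globin messenger RNA is made by red blood cells, which a dissected embryonic jaw holds in its vessels. The 7 mouse globin genes described here were the embryonic alpha-like gene Hba-x, the embryonic beta-like genes Hbb-y and Hbb-bh1, the adult-type alpha genes Hba-a1 and Hba-a2, and the adult-type beta genes Hbb-bt and Hbb-bs. Alas2, which encodes the erythroid form of the first enzyme of heme synthesis, was followed with them. These 8 genes were taken by name out of 33641 gene symbols, and all 8 passed the filter on low counts that left 17477 genes for testing.

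Bulk RNA-seq was performed on mandibular prominences (MNPs), the outgrowths of the embryonic face from which the lower jaw is built, dissected at embryonic day (E) 10.5 from mice of the outbred CD1 strain. The study compared wild-type (WT) MNPs with MNPs lacking Hand2 (Hand2 f/f with Wnt1-Cre+, called Hand2 cKO) and with MNPs lacking both Gli2 and Gli3 (Gli2 f/f and Gli3 f/f with Wnt1-Cre+, called Gli2/3 cKO), in order to ask which genes these transcription factors control in the neural crest-derived mesenchyme. Of 10 samples, 6 libraries were analysed here: WT 3 and WT 4, Hand2 cKO 1, 2 and 3, and Gli2/3 cKO 3. The Wnt1-Cre transgene acts in cells of neural crest descent, and red blood cells do not descend from the neural crest. The labels do not say whether the wild-type embryos carried Cre or floxed alleles, or whether a library came from 1 embryo or from a pool. Dams carrying Hand2 mutants received adrenergic agonists in their drinking water for the collection of later stages, and the sources do not say whether the E10.5 litters were treated. The Gli2/3 cKO group had 1 library and so no replicate of its own.

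Mouse red cells are made in successive waves. Primitive erythroblasts arise in the yolk sac, circulate while still nucleated and express mainly embryonic globins together with some adult-type alpha globin. Definitive red cells, made later from yolk sac progenitors and in the fetal liver, express mainly adult-type globins, and the ratio of embryonic to adult-type globin is therefore used as a measure of developmental stage, while the total globin share measures how much blood a dissected tissue holds. In bulk tissue, fewer red cells and less globin RNA per red cell cannot be told apart.

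Total estimated counts ran from 21420197 in WT 4 to 53326697 in Hand2 cKO 1. Hand2 was at 175 and 209 CPM (counts per unit of library size, scaled by edgeR's trimmed mean of M-values, TMM) in WT 3 and WT 4, at 13.4, 25.4 and 15.6 in the Hand2 cKO libraries and at 144 in Gli2/3 cKO 3. Gli2 and Gli3 were at 58.3 and 80.2 CPM in Gli2/3 cKO 3 against 105 or more in both WT libraries, so the targeted genes went with their labels. The arch mesenchyme gene Prrx1 was at 499 to 753 CPM in every library, but other mesenchyme genes were less even. Alx4 was at 63.4 to 98.3 CPM in Hand2 cKO against 218 and 230 in WT. Of the 6 mesenchyme genes listed, 2 were highest in WT 4. The median of their log2 CPM, centred on each gene's mean over the libraries, was -0.38 in WT 4 and 0.00 to 0.18 in the others. All 8 globin and Alas2 genes had counts in every library. WT 4 stood apart from the other libraries in its adult-type globins, and Hand2 cKO 2 stood apart in a decline of its counts with transcript length (a slope of -0.22 log2 units per doubling of length against -0.09 to 0.12 in the others), which bears on globins because their transcripts are short (weighted lengths of 554 to 796 bases). The comparisons of the 8 genes are therefore given with and without WT 4, and those that rest on Hand2 cKO 2 also without it.

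The 3 alpha genes lie on chromosome 11 in mm10 (Hba-x at chr11:32276400-32278116, Hba-a1 at chr11:32283511-32284465 and Hba-a2 at chr11:32296489-32297298, all on the + strand) in the order of their use in development. The beta genes lie on chromosome 7 on the - strand, with Hbb-y at chr7:103851749-103853216, Hbb-bh1 at chr7:103841637-103843164, Hbb-bs at chr7:103826534-103828096 and Hbb-bt at chr7:103812524-103813996. Alas2 lies at chrX:150547375-150570638 on the + strand.

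Promoters are shown because globin genes are the textbook case of promoters read by erythroid factors, and because they show which members share their control sequence and which do not. RefSeq (GRCm38.p6) entries were found for 7 of the 8 genes, the exception being Hbb-bh1. The 120 bases before the transcription start are printed 5′ to 3′ on the gene's own strand, and capitals mark matches on either strand to GATAA (the core bound by GATA factors), CCNCNCCC (a CACCC-type box of the kind bound by Klf1), CCAAT and TATAA. Adjacent or overlapping matches run together in capitals. The transcription start used is that of RefSeq, whereas the gene positions above are GENCODE spans. By those spans, the printed stretches of Hba-x and Hbb-bs lie wholly inside the gene, and the other printed stretches overlap the gene in part.

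Hba-x, chr11:32276480-32276599, + strand: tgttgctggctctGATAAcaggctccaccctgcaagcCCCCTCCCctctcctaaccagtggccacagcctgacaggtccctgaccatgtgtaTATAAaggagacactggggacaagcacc
Hbb-y, chr7:103853208-103853327, - strand: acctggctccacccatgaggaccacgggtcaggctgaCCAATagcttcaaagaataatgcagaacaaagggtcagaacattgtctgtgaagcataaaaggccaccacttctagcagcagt
Hba-a2, chr11:32296372-32296491, + strand: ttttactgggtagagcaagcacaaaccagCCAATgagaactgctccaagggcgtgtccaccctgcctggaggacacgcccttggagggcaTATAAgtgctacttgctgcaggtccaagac
Hbb-bs, chr7:103827929-103828048, - strand: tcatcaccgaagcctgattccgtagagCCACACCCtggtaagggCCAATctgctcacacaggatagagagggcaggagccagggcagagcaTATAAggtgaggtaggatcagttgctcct
Hbb-bt, chr7:103813924-103814043, - strand: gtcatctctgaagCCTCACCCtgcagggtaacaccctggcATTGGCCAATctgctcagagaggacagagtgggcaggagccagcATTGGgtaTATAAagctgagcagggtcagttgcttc
Alas2, chrX:150547297-150547416, + strand: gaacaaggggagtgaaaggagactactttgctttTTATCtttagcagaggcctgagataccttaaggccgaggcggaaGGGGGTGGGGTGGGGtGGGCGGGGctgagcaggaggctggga

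A CCAAT match stood in every one of these globin promoters other than Hba-x, and also in that of Hba-a1. Over all 32851 RefSeq promoters, 21.3% held CCAAT within 120 bases, 11.8% held TATAA, 34.6% held CCNCNCCC and 10.5% held GATAA. The TATAA match began at position -28 in Hba-x and Hbb-bt, -29 in Hbb-bs, -30 in Hba-a2 and -27 in Hba-a1, counted back from the RefSeq start. The 4 CCNCNCCC matches of Alas2 were on the opposite strand, and 3 of them overlapped. Hba-a1 and Hba-a2 shared 97.6% of their 250 bases of promoter, with an identical run of 247 bases, whereas Hbb-bt and Hbb-bs shared 69.3%, with a longest identical run of 14 bases. A match is a match of letters and not an occupied site.

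The coding sequences bear on how well the counts of each gene can be told apart. Hba-a1 and Hba-a2 differed at 1 of 426 coding bases, and Hbb-bt and Hbb-bs at 1 of 441. Their most abundant transcripts are longer, at 699 and 554 bases and at 703 and 628 bases, and the untranslated parts were not compared. Reads within the coding sequence hardly separate the copies. The separate values may therefore depend in part on how the authors' software shared reads, and the sum of each pair is the firmer measurement. The embryonic genes were distinct, with Hba-x 63.9% identical to Hba-a1, Hbb-y 76.4% identical to Hbb-bh1 and Hbb-y 74.4% identical to Hbb-bs.

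Hba-x encodes zeta globin, the alpha-like chain of embryonic hemoglobin. Its level was 639.7 CPM in WT 3, 1843 in WT 4, 931, 1981 and 881 in Hand2 cKO 1, 2 and 3, and 878 in Gli2/3 cKO 3. WT 4 and Hand2 cKO 2 were the high libraries, and the Hand2 cKO values lay on both sides of WT 4 and above WT 3. The group means were 1241 ± 850.5 CPM (SD, n = 2) in WT and 1265 ± 621 (n = 3) in Hand2 cKO.

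Hbb-y, which encodes the epsilon-type embryonic beta chain, was the most abundant globin per kilobase in every library but WT 4. It was at 882 CPM in WT 3, 2356 in WT 4, 1329, 2649 and 1199 in Hand2 cKO 1, 2 and 3, and 1074 in Gli2/3 cKO 3. Hbb-bh1, which encodes the other embryonic beta-like chain, was at 533 CPM in WT 3, 1358 in WT 4, 798, 1722 and 811.5 in Hand2 cKO 1, 2 and 3, and 723 in Gli2/3 cKO 3. Both followed the order of Hba-x at their extremes, with WT 3 lowest, WT 4 second and Hand2 cKO 2 highest. The ratio of Hbb-y to Hbb-bh1 counts stayed between 1.48 and 1.74 in all 6 libraries, and the ratio of Hba-x to the sum of both between 0.438 and 0.496, so the embryonic genes kept nearly fixed proportions while their level varied 3.00-fold to 3.23-fold between libraries.

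Hba-a1 and Hba-a2 encode the adult alpha chain, which primitive red cells also make. Hba-a1 was at 323 CPM in WT 3, 1269 in WT 4, 442, 1075 and 410.2 in Hand2 cKO 1, 2 and 3, and 327 in Gli2/3 cKO 3. Hba-a2 was at 155 CPM in WT 3, 2821 in WT 4, 229, 508 and 228 in Hand2 cKO 1, 2 and 3, and 318 in Gli2/3 cKO 3. Hba-a1 in WT 4 was close to its level in Hand2 cKO 2, at 1.18 times that library, whereas Hba-a2 in WT 4 was 5.55 times the highest other library and 18.2 times WT 3. The ratio of Hba-a1 to Hba-a2 counts was 1.80 to 2.12 in WT 3 and the 3 Hand2 cKO libraries, 1.03 in Gli2/3 cKO 3 and 0.45 in WT 4. Summed over the pair, adult-type alpha globin was at 478 CPM in WT 3, 4090.0 in WT 4, 671, 1583 and 638 in Hand2 cKO 1, 2 and 3, and 646 in Gli2/3 cKO 3.

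Hbb-bs and Hbb-bt encode the adult beta chains of the haplotype carried by the reference strain. Hbb-bs was at 12.8 CPM in WT 3, 1846 in WT 4, 13.6, 38.8 and 20.85 in Hand2 cKO 1, 2 and 3, and 24.45 in Gli2/3 cKO 3. Hbb-bt was at 2.86 CPM in WT 3, 438 in WT 4, 17.95, 40.15 and 3.85 in Hand2 cKO 1, 2 and 3, and 1.57 in Gli2/3 cKO 3. WT 4 was again alone, at 47.55 times the highest other library for Hbb-bs and 10.9 times for Hbb-bt, and at 145 and 153 times WT 3. The other libraries split differently for the 2 genes. Counts of Hbb-bs were 4.45, 4.22, 5.40 and 15.8 times those of Hbb-bt in WT 3, WT 4, Hand2 cKO 3 and Gli2/3 cKO 3, but 0.76 and 0.968 times in Hand2 cKO 1 and 2. Hbb-bt without WT 4 still varied 25.6-fold between libraries, against 3.04-fold for Hbb-bs, 3.28-fold for Hba-a2 and 1.80-fold for Alas2. Summed over the pair, adult-type beta globin was at 15.6 CPM in WT 3, 2284 in WT 4, 31.6, 79.0 and 24.7 in Hand2 cKO 1, 2 and 3, and 26.02 in Gli2/3 cKO 3. The number behind the lowest value was small, with 41 counts of Hbb-bt in Gli2/3 cKO 3 and 147 in WT 3.

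Alas2 was at 21.4 CPM in WT 3, 122 in WT 4, 30.1, 38.5 and 32.55 in Hand2 cKO 1, 2 and 3, and 29.2 in Gli2/3 cKO 3. WT 4 was 3.18 times the highest other library, and the other 5 libraries lay within a 1.80-fold range. Alas2 kept pace with the globins in WT 4, at 10.2 counts per 1000 globin counts against 8.40 in WT 3, 8.02 and 9.15 in Hand2 cKO 1 and 3, and 8.73 in Gli2/3 cKO 3. Hand2 cKO 2 was the low library on that measure, at 4.80, and Alas2 has a longer transcript (weighted length 1952 bases) than the globins. The part of transcript length in that low value was not tested.

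**Figure D1:**
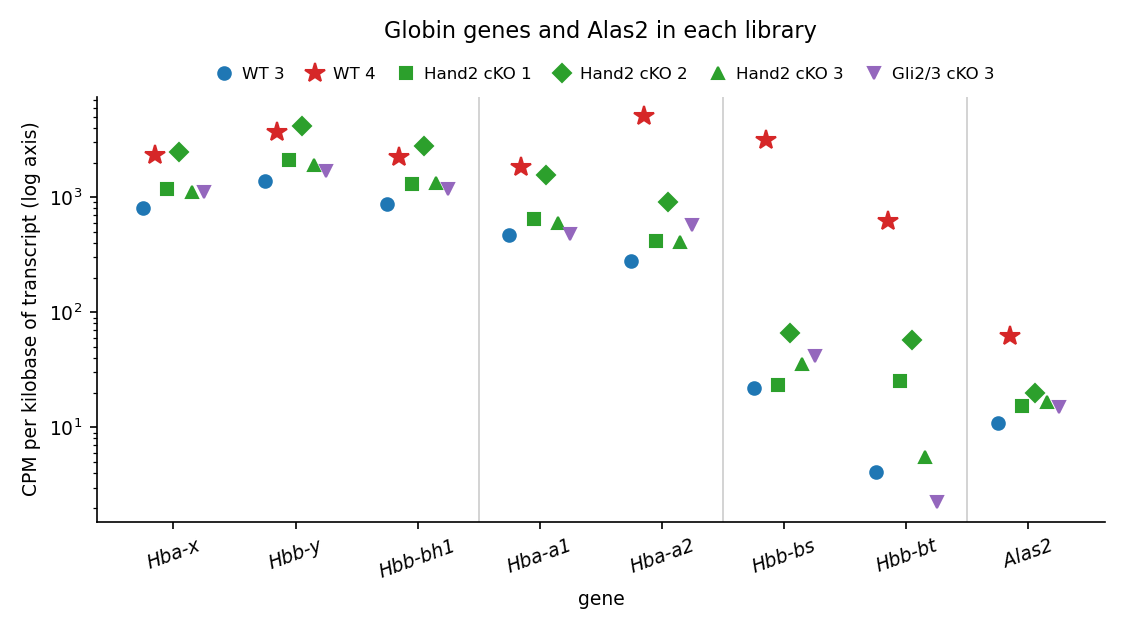
Level of each gene in CPM per kilobase of transcript (log axis) in the 6 libraries, 1 point a library, with embryonic globins, adult-type alpha globins, adult-type beta globins and Alas2 set apart by vertical lines. WT 4 (star) sits between Hand2 cKO 2 and the other libraries for the embryonic globins, at 1.18 times the highest other library for Hba-a1, and far above them all for Hba-a2, Hbb-bs and Hbb-bt, where it is 5.55, 47.55 and 10.9 times the highest other library.

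Per kilobase of transcript, the order of levels was Hbb-y, Hbb-bh1, Hba-x in each library other than WT 4, with WT 3 at 1394, 870.0 and 804 CPM per kilobase. The ranges of these 3 genes over the libraries overlapped, while within each of these libraries Hbb-y stood above Hbb-bh1 and Hbb-bh1 above Hba-x. Below them came Hba-a1 and Hba-a2, at 469 and 280 CPM per kilobase in WT 3, which changed places in Gli2/3 cKO 3 (475 and 575). Hbb-bs, Alas2 and Hbb-bt followed at 21.9, 11.0 and 4.07 in WT 3, and Hbb-bt stood above Alas2 in Hand2 cKO 1 and 2. In WT 4 the order was different from the top down, with Hba-a2 at 5092, Hbb-y at 3723, Hbb-bs at 3168, Hba-x at 2315, Hbb-bh1 at 2216, Hba-a1 at 1841 and Hbb-bt at 623 CPM per kilobase.

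The 7 globins together made up 0.264% of all counts in WT 3, 1.26% in WT 4, 0.373%, 0.712% and 0.359% in Hand2 cKO 1, 2 and 3, and 0.344% in Gli2/3 cKO 3. Counting error was far smaller than these differences, the exact binomial 95% interval being 0.263% to 0.266% in WT 3 and 1.25% to 1.26% in WT 4. WT 3 had the lowest share and WT 4 the highest, so both WT libraries lay outside the range of the mutants, on opposite sides. The means were 0.762% ± 0.704 (SD, n = 2) in WT and 0.481% ± 0.200 (n = 3) in Hand2 cKO.

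The make-up of the globin counts was nearly constant in every library but WT 4. Embryonic globins were 80.6% of globin counts in WT 3, 81.3%, 79.3% and 81.4% in Hand2 cKO 1, 2 and 3, and 79.9% in Gli2/3 cKO 3. In WT 4 they were 46.6%, with an exact 95% interval of 46.4% to 46.8%. Per kilobase the same shares were 80.0%, 80.7%, 78.6%, 80.6% and 78.6%, against 42.8% in WT 4. Hand2 cKO 2, with its high total globin, thus had nearly the same make-up as the libraries with low globin, and WT 4 had another.

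The adult-type share was high in WT 4 for both clusters, and stood further from the other libraries for the beta genes. Adult-type beta globin was 0.614% of globin counts in WT 3, 0.840%, 0.985% and 0.695% in Hand2 cKO 1, 2 and 3, 0.777% in Gli2/3 cKO 3 and 19.1% in WT 4. Adult-type alpha globin was 17.8% to 19.75% in these libraries and 34.3% in WT 4. The embryonic to adult-type ratio was 3.82 to 4.36 outside WT 4 and 0.872 within it. Among alpha globins it was 1.25 to 1.39 against 0.45, and among beta globins 55.3 to 90.5 against 1.63. The ratio of all alpha to all beta counts moved far less, from 0.742 to 0.836 in the other libraries and 0.989 in WT 4.

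**Figure D2:**
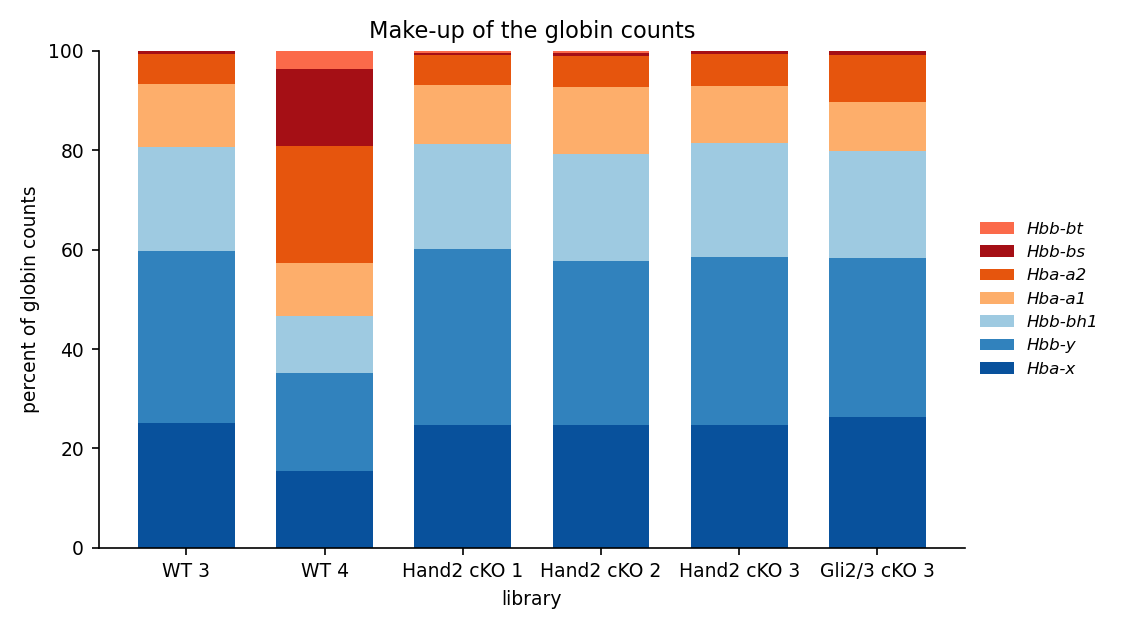
Share of each of the 7 globin genes in the globin counts of each library, in percent, as stacked bars, with embryonic globins in blue and adult-type globins in orange and red. The blue part is 79.3% to 81.4% in all libraries other than WT 4, where it is 46.6% and where Hba-a2 (23.6%) and Hbb-bs (15.5%) take the largest adult-type shares.

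Between the groups, the log2 embryonic to adult-type ratio was 1.13 higher in Hand2 cKO than in WT, and 1.06 higher in Gli2/3 cKO. Neither was larger than the pooled SD of the WT and Hand2 cKO libraries (1.13), and both rested on WT 4. Without WT 4, they were 0.002 and -0.07, and on the linear scale the ratio was 4.17 in WT 3, within the spread of the Hand2 cKO libraries (4.18 ± 0.31, SD, n = 3). Within beta globins the log2 difference between Hand2 cKO and WT was 2.47, and -0.43 without WT 4, and within alpha globins it was 0.79, and -0.00 without WT 4. The log2 globin share was lower in Hand2 cKO than in WT by -0.34, and higher by 0.79 without WT 4. No test was made of these ratios, which are scores over chosen genes.

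Transcript-level counts separated WT 4 further. Transcripts annotated by GENCODE as retained intron held 18.0% of the Hba-a1 counts in WT 4 and 1.17% to 1.72% in the other libraries. For Hbb-bs they held 17.3% in WT 4 and 0 to 1.78% elsewhere. Hba-a2 had an annotated transcript of that class too, of the same length of 494 bases as that of Hba-a1, and it held 0 counts in WT 4, so the high value was not seen for every adult-type gene. The share of reads between Hba-a1 and Hba-a2 is uncertain here as well. The retained-intron transcript of Alas2 held 0.813% in WT 4 and 0.262% to 2.23% elsewhere. Alas2 differed in its coding transcripts instead, with a 1892-base form at 51.7% of its counts in WT 4 and 19.6% to 39.1% in the others, and a 2037-base form at 47.0% against 53.6% to 79.6%.

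**Figure D3:**
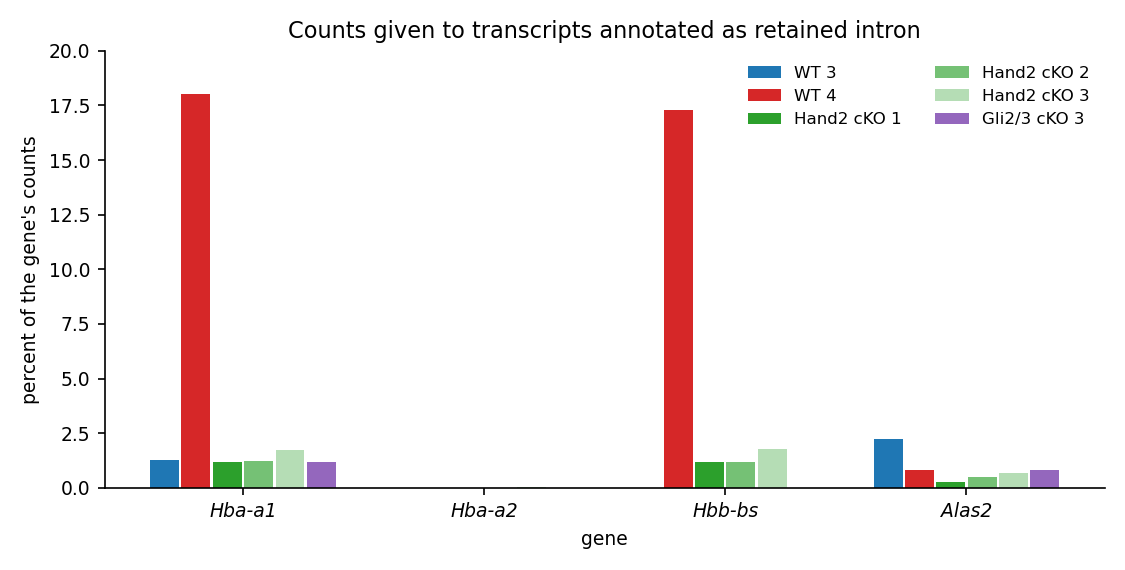
Share of each gene's counts given to its transcript annotated as retained intron, in percent, for the 4 genes that have one, with 1 bar a library. WT 4 (red) stands at 18.0% for Hba-a1 and 17.3% for Hbb-bs, where no other library passes 1.78%, and at 0 for Hba-a2.

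The first comparison between genotypes asked whether any of these genes differed between Hand2 cKO and WT. A gene was called when its fold was above 1.5 and its p from edgeR's quasi-likelihood test, adjusted by the Benjamini-Hochberg method, was below 0.05. None of the 8 was called, against 0.0114% of all genes tested (2 of 17477, both lower in Hand2 cKO). DESeq2 also called 0 of 8, against 1.08% of its 16799 genes (0.875% lower and 0.208% higher). At an unadjusted edgeR p below 0.05 there was 1, Hbb-bs, on the lower side, against 4.02% of all genes lower and 2.44% higher. The log2 fold changes of the embryonic genes were 0.03 (SE 0.54) for Hba-x, 0.09 (SE 0.52) for Hbb-y and 0.23 (SE 0.51) for Hbb-bh1, with 95% intervals that reached from -1.30 to 1.35, from -1.16 to 1.35 and from -1.01 to 1.47. Differences within these intervals cannot be told from none. Without Hand2 cKO 2, the 3 values were -0.46, -0.37 and -0.24.

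The adult-type genes had larger and less certain differences. The log2 fold change in Hand2 cKO against WT was -0.31 (SE 0.66) for Hba-a1, -2.21 (SE 1.03) for Hba-a2 and -3.42 (SE 1.69) for Hbb-bt. Hbb-bs had the largest difference, -5.25 (SE 1.64), with an unadjusted edgeR p of 0.018, a Benjamini-Hochberg adjusted p of 0.723 and an adjusted p of 0.161 by DESeq2. Alas2 was at -1.09 (SE 0.63, edgeR adjusted p of 0.723). With the pairs summed, the log2 fold change was -1.24 (SE 0.85) for Hba-a1 and Hba-a2, and -4.67 (SE 1.63) for Hbb-bt and Hbb-bs, both with an edgeR adjusted p of 0.723. The median over the 8 genes was -0.70, beside 0.00 over all genes tested, and 5 of 8 were negative against 50% of all genes. No gene of the 8 had all Hand2 cKO libraries below all WT libraries or all above, against 15.7% and 15.3% of all genes.

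Without WT 4 every one of these differences was positive. The log2 fold change against WT 3 alone was 0.98 (SE 0.58) for Hba-x, 0.97 (SE 0.56) for Hbb-y, 1.06 (SE 0.57) for Hbb-bh1, 0.99 (SE 0.67) for Hba-a1 and 1.05 (SE 0.59) for Hba-a2. It was 0.93 (SE 0.63) for Hbb-bs, 2.85 (SE 1.40) for Hbb-bt and 0.65 (SE 0.25) for Alas2. The embryonic and adult-type genes other than Hbb-bt thus sat together near 1. The median of the 8 was 0.99, beside 0.002 over all genes in that fit. The share of all genes with a positive difference was not worked out for the fits without WT 4. With 1 WT library left, effect sizes alone are given. In that comparison the lone WT library is assumed to vary as the other libraries do. The values near 1 rested in part on Hand2 cKO 2. With that library left out as well, a choice made after seeing the data, they were 0.49 for Hba-x, 0.50 for Hbb-y and 0.58 for Hbb-bh1. Those of Hba-a1, Hba-a2 and Hbb-bs were then 0.38, 0.54 and 0.41.

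**Figure D4:**
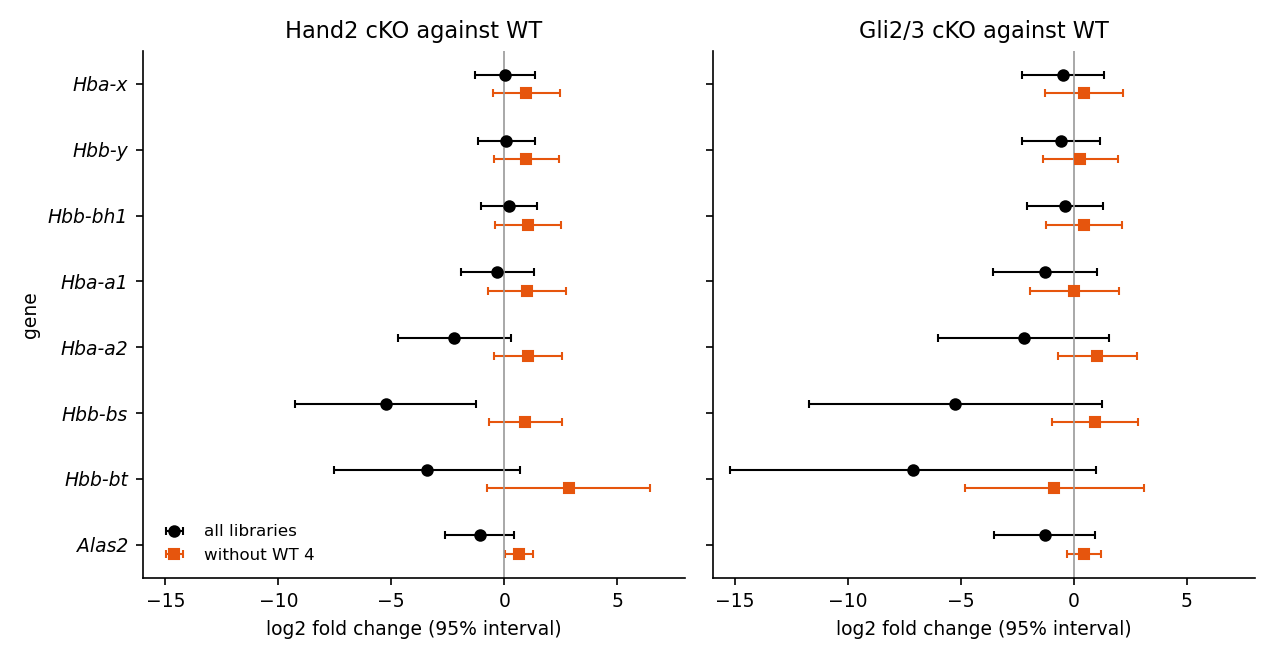
Log2 fold change of each gene against WT in Hand2 cKO (left) and Gli2/3 cKO (right), with 95% intervals from edgeR's quasi-likelihood fit, for all libraries (black circles) and without WT 4 (orange squares). In Hand2 cKO the values of Hba-a2, Hbb-bs and Hbb-bt move from -2.21, -5.25 and -3.42 to 1.05, 0.93 and 2.85 when WT 4 is left out.

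The second comparison set the single Gli2/3 cKO library against WT. None of the 8 genes was called by edgeR, against 0.0114% of all genes tested, or by DESeq2, against 0.813% (0.689% lower and 0.124% higher). None had an unadjusted edgeR p below 0.05, against 2.96% of all genes lower and 1.63% higher. All 8 differences were negative, against 49.7% of all genes, with log2 fold changes of -0.50 (SE 0.75) for Hba-x, -0.59 (SE 0.71) for Hbb-y and -0.39 (SE 0.69) for Hbb-bh1. Those of the adult-type genes were -1.28 (SE 0.95) for Hba-a1, -2.23 (SE 1.55) for Hba-a2, -5.25 (SE 2.67) for Hbb-bs and -7.13 (SE 3.33) for Hbb-bt, and that of Alas2 was -1.30 (SE 0.91). The median was -1.29. Hbb-bt was the 1 gene whose Gli2/3 cKO value lay below both WT libraries, a pattern found in 33.7% of all genes. None lay above both WT libraries, against 36.5% of all genes.

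Without WT 4, the median of the 8 log2 fold changes was 0.44, beside 0.015 over all genes in that fit. Of the 8 differences between Gli2/3 cKO 3 and WT 3, 7 were positive, and these compare 1 library with another. They were 0.46 (SE 0.67) for Hba-x, 0.28 (SE 0.64) for Hbb-y, 0.44 (SE 0.65) for Hbb-bh1, 0.02 (SE 0.77) for Hba-a1 and 1.04 (SE 0.68) for Hba-a2. They were 0.94 (SE 0.74) for Hbb-bs, -0.87 (SE 1.53) for Hbb-bt and 0.45 (SE 0.29) for Alas2. With WT 4 and Hand2 cKO 2 both left out, an alternative chosen after seeing the data, Hba-a2 was at 1.02, while its near-identical copy Hba-a1 was at 0.00. Each of these values compares 1 library with 1, and the part of read sharing between the copies in them was not tested.

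The third comparison was between the mutants, with the spread estimated over all 6 libraries. None of the 8 genes was called by edgeR, against 0.0343% of all genes tested (0.0172% in each direction), or by DESeq2, against 0.875% (0.62% lower and 0.255% higher). None had an unadjusted edgeR p below 0.05, against 2.63% of all genes lower and 2.86% higher. Of the 8 differences, 7 were negative, against 51.7% of all genes. The log2 fold changes of Gli2/3 cKO against Hand2 cKO were -0.53 (SE 0.71) for Hba-x, -0.68 (SE 0.68) for Hbb-y, -0.62 (SE 0.67) for Hbb-bh1, -0.97 (SE 0.89) for Hba-a1 and -0.01 (SE 1.31) for Hba-a2. They were 0.00 (SE 1.90) for Hbb-bs, -3.71 (SE 2.79) for Hbb-bt and -0.21 (SE 0.82) for Alas2. Without WT 4 in the fit the values were the same to within 0.01 and the errors smaller, with an SE of 0.60 for Hbb-bs, 0.55 for Hba-a2, 1.51 for Hbb-bt and 0.24 for Alas2, and again none was called (lowest edgeR adjusted p of 0.949). Without Hand2 cKO 2 the differences were -0.05 for Hba-x, -0.23 for Hbb-y, -0.15 for Hbb-bh1, -0.38 for Hba-a1, 0.48 for Hba-a2, 0.51 for Hbb-bs, -2.80 for Hbb-bt and -0.10 for Alas2. For 6 of the 8 genes the Gli2/3 cKO value was below all 3 Hand2 cKO values, against 27.2% of all genes, and for 0 it was above them all, against 28.7%. Hba-x and Alas2 were among the 6 by small margins, at 878 against 881 CPM and 29.2 against 30.1 CPM.

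Other genes of red cells were examined from lists of membrane proteins, transcription factors and heme and iron genes. In none of these lists was any gene called by edgeR in any of the 3 comparisons, against 0.0114% to 0.0343% of all genes. Of 17 red cell membrane genes, 16 were highest in WT 4, with a median WT 4 to WT 3 ratio of 2.87. The share of all genes highest in WT 4 was not worked out. Among markers of other cells it was 2 of 6 mesenchyme, 0 of 5 epithelial, 4 of 8 endothelial and 3 of 8 macrophage genes. It was also 2 of 6 megakaryocyte and platelet genes and 0 of 4 tested mast cell, neutrophil and progenitor genes. At an unadjusted edgeR p below 0.05, 2 of the 17 were lower in Hand2 cKO than in WT, against 4.02% of all genes, 0 were called by DESeq2, against 1.08%, and the median log2 fold change was -0.48, or 0.35 without WT 4. Aqp1, a water channel of the red cell membrane, was at 7.65 CPM in WT 4 and 0.459 to 1.02 in the other libraries. Ank1, which ties band 3 to the spectrin skeleton, was at 39.5 CPM in WT 4 and 14.04 to 19.8 elsewhere, and Sptb, beta spectrin, was at 97.5 CPM against 33.8 to 52.7. Add2, which caps actin in that skeleton, was at 33.9 CPM against 18.6 to 24.0. Hand2 cKO 2 was not high in this list, and was the lowest library for 5 of the 17 genes, whereas its globins were among the highest.

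Of 11 erythroid regulators measured, 9 were highest in WT 4, with a median WT 4 to WT 3 ratio of 2.51. The erythroid protein Trim10 was at 20.9 CPM in WT 4 and 3.02 to 6.12 in the others, and Hemgn, a nuclear protein of blood progenitors, at 30.0 against 10.4 to 15.8. Zfpm1, the partner of GATA1, was at 37.2 CPM against 22.9 to 27.6, and the repressor Gfi1b at 2.87 against 1.34 to 1.82. The median log2 fold change of Hand2 cKO against WT was -0.33, and 0.45 without WT 4. In the comparison with WT 4, 0 genes were called by edgeR, against 0.0114% of all genes, and 0 by DESeq2, against 1.08%. At an unadjusted edgeR p below 0.05 there were 0, against 4.02% of all genes lower and 2.44% higher.

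The 18 heme and iron genes were less bound to WT 4. Of these, 8 were highest in WT 4 and 8 in Hand2 cKO 2, and the median WT 4 to WT 3 ratio was 1.499. Slc25a37, the mitochondrial iron importer mitoferrin, was at 165 CPM in WT 4 and 86.1 to 115 in the others, and Ppox, a late enzyme of heme synthesis, at 68.7 against 41.4 to 56.5. The ferritin heavy chain gene Fth1 was highest in Hand2 cKO 2, at 692 CPM against 284 to 424, and has a short transcript. Tfrc, the transferrin receptor, was at 114 to 164 CPM and was not high in WT 4 (114). None was called by DESeq2 in any comparison, against 0.813% to 1.08% of all genes. At an unadjusted edgeR p below 0.05 there were 0, against 2.63% to 4.02% of all genes lower and 1.63% to 2.86% higher.

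The 10 regulators of globin switching behaved differently from the globins, with 0 highest in WT 4 and a median WT 4 to WT 3 ratio of 0.883. Bcl11a, a repressor of embryonic and fetal globin genes, was at 116 CPM in WT 3, 102 in WT 4 and 78.3 to 102 in the mutants. Zbtb7a, another such repressor, was at 19.3 to 29.8 CPM, and Klf2, an activator of embryonic globin genes, at 3.25 to 4.80. Lin28b, an RNA-binding protein of fetal-type blood progenitors and of many other embryonic cells, was at 72.0 and 64.5 CPM in WT, 99.1, 87.9 and 121 in Hand2 cKO and 172 in Gli2/3 cKO 3. Both WT libraries lay below all mutant libraries, as in 15.3% of all genes for Hand2 cKO and 36.5% for Gli2/3 cKO. The log2 fold change of Lin28b was 0.59 (SE 0.19, edgeR adjusted p of 0.723) in Hand2 cKO and 1.34 (SE 0.24) in Gli2/3 cKO, where DESeq2 called it (adjusted p of 0.00127) and edgeR did not (adjusted p of 0.507). These regulators are expressed in mesenchyme, neurons or epithelium as well, and their level in red cells was not measured.

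**Figure D5:**
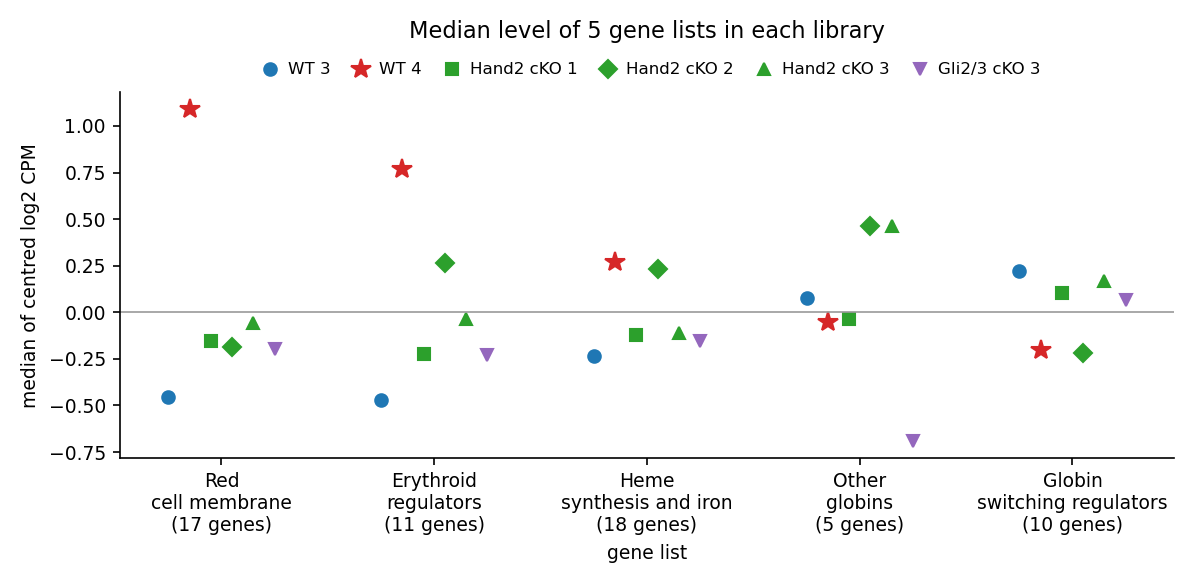
Median over the tested genes of each list of log2 CPM centred on each gene's mean over the 6 libraries, with 1 point a library. WT 4 (star) is at 1.09 for red cell membrane genes and 0.77 for erythroid regulators, above every other library, and at -0.20 for globin switching regulators.

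Markers of other cells of the vessels and blood were summed in the same way. The summed level of 8 endothelial genes was 248 to 303 CPM and that of 8 macrophage genes 16.1 to 29.1 CPM, with WT 4 highest in both. The sum of 6 megakaryocyte and platelet genes was 19.4 CPM in WT 4, 15.9 in Hand2 cKO 2 and 7.92 to 11.2 in the others. The sum of 6 mast cell, neutrophil and progenitor genes was 33.2 to 58.3 CPM, and WT 4 was not high (45.2). Most of that sum was Kit (30.3 to 55.1 CPM), and Cpa3, Elane and S100a9 were at 0 in at least 1 library, whereas every gene of the other lists of this kind had counts in every library. In Gli2/3 cKO against WT, all 8 globin and Alas2 values were negative, and so were 7 of 8 macrophage genes (median log2 fold change -0.89). The 2 sets parted without WT 4. Of the globin and Alas2 values 1 was then negative (median 0.44), while the macrophage genes were negative in 8 of 8 (median -0.78). Of the 8, 4 were lower at an unadjusted edgeR p below 0.05 with WT 4 in the fit, against 2.96% of all genes lower. None was called by edgeR, against 0.0114% of all genes, or by DESeq2, against 0.813%. In Gli2/3 cKO against Hand2 cKO, 8 of 8 macrophage genes were negative (median -0.92), 2 of them lower at an unadjusted edgeR p below 0.05, against 2.63% of all genes. In Gli2/3 cKO against WT, the megakaryocyte and platelet genes had a median of -0.89, or -0.51 without WT 4, with 5 of 6 negative. The part of these cells in the globin values was not tested.

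The genes whose profile over the 6 libraries was most like that of the summed globins were sought among 12456 genes by the root mean square difference of centred log2 CPM, as a description. The nearest was Rhd (0.180), a Rhesus blood group protein, and the 8 nearest also held Acp5, Nfe2, Tyrobp, Tmod1, Cldn13 and Hbq1b (0.282). Rhd was at 2.81 CPM in WT 3, 10.7 in WT 4, 4.43, 7.13 and 4.33 in Hand2 cKO 1, 2 and 3, and 3.48 in Gli2/3 cKO 3, and so shared the high values of both WT 4 and Hand2 cKO 2. Nearest to Alas2 were Trim10 (0.145) and Kel (0.161), the Kell blood group protein, and the 8 nearest also held Car2, Cldn13, Slc4a1 and Rhd (0.324). Of the globins themselves, Hba-a1 was nearest to the sum (0.151) and Hbb-bs and Hbb-bt were farthest (1.85 and 2.04). Each globin is a part of that sum, so abundant globins are drawn near it by construction.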

How the data were processed

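MNPs were dissected at E10.5 and polyadenylated RNA was sequenced as paired-end reads. Per the paper's methods, the authors mapped reads to mm10 and estimated transcript abundance in Strand NGS, and the submitters' processing notes name DESeq2 and mm10. The deposited tables hold estimated counts for 105129 transcripts, of which 47.7% to 56.8% are not whole (tolerance 0.01), so reads shared between similar transcripts were divided. How strand was used is not given in the sources. The labels and the methods name different sequencers. Replicates are separate samples in the labels.

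Estimated counts were summed by gene symbol and rounded. Genes were filtered with filterByExpr, scaled by TMM and tested in 1 edgeR (4.0.16, R 4.3.3) quasi-likelihood fit over the 6 libraries, with 3 residual degrees of freedom. The threshold was a fold above 1.5 with p, adjusted over all 17477 genes (Benjamini-Hochberg), below 0.05. The standard error is the log2 fold change divided by the square root of F. DESeq2 (1.42.0) was the alternative test. Other alternatives were RLE and upper-quartile scaling, library totals alone, globins left out of scaling, no filter, a robust prior, fits of the compared groups alone, summed near-identical pairs, a length correction and leaving out each replicate. Lengths and positions came from GENCODE M21 (103723 transcripts matched by ID), promoters from RefSeq. Alignments used Biopython 1.88. Binomial intervals (SciPy 1.17.1) cover counting error only.

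Members and gene lists were chosen with earlier results of these data known. The text names every member, the 4 genes of each list with the smallest unadjusted p in Hand2 cKO against WT, the 8 genes nearest in profile, and the genes targeted, apart from some that are not reported here. Prrx1 and other genes named outside these rules were chosen after their values were seen. Tested on simulated data for Hand2 cKO against WT (16995 genes), edgeR recovered 11.3% of 2-fold, 90% of 4-fold and 98% of 8-fold changes, with 15 false calls a draw. For Gli2/3 cKO against WT it recovered 1.33%, 60% and 86%. The changes were put into both mutant groups at once. The genes changed were drawn at random above a floor on mean log2 CPM, each with its own spread. Differences shared by many genes of a library, such as the trend with transcript length, were not simulated. The recovery shares therefore do not give the power of the comparisons above. Recovery for genes as variable as the adult-type globins was not measured. Total counts were 21420197 to 53326697 a library. The other 4 samples were not analysed here.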

Additional observations from a re-analysis of the deposited data

How the results depend on the processing

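Among 372 alternative values, no member was called in any setting other than the one with WT 4 and Hand2 cKO 2 both left out, and 44 values changed sign. In that setting Gli2/3 cKO against WT compares 1 library with 1, and Hba-a2 was at 1.02. No paired analysis was possible because the libraries of the groups compared share 1 replicate number at most, replicate 3. In Hand2 cKO against WT, leaving out 1 replicate at a time gave log2 fold changes from -0.54 to 0.98 for Hba-x, -0.98 to 0.99 for Hba-a1, -3.13 to 1.05 for Hba-a2, -0.45 to 0.97 for Hbb-y, -0.29 to 1.06 for Hbb-bh1, -4.41 to 2.85 for Hbb-bt, -6.24 to 0.93 for Hbb-bs and -1.86 to 0.65 for Alas2. In Gli2/3 cKO against WT they ran from -1.07 to 0.46 for Hba-x, -1.95 to 0.02 for Hba-a1, -3.15 to 1.04 for Hba-a2, -1.13 to 0.28 for Hbb-y, -0.91 to 0.44 for Hbb-bh1, -8.12 to -0.87 for Hbb-bt, -6.24 to 0.94 for Hbb-bs and -2.07 to 0.45 for Alas2. The upper ends are those without WT 4, and the negative values of the embryonic genes in Hand2 cKO are those without WT 3 or Hand2 cKO 2. Between the mutants they ran from -0.21 to 0.48 for Hba-a2 and -0.29 to 0.51 for Hbb-bs.

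With WT 4 and Hand2 cKO 2 both left out, Hand2 cKO against WT gave 0.38 for Hba-a1, 0.54 for Hba-a2, 1.92 for Hbb-bt, 0.41 for Hbb-bs and 0.53 for Alas2. Gli2/3 cKO against WT then gave 0.44 for Hba-x, 0.004 for Hba-a1, 0.27 for Hbb-y, 0.42 for Hbb-bh1, 0.92 for Hbb-bs and 0.43 for Alas2, and Hba-a2 was at 0.48 between the mutants. Values close to 0 changed sign under scaling: Hba-x in Hand2 cKO was -0.023 with upper-quartile scaling, -0.13 with library totals only and -0.034 with the length trend removed, and Hbb-y was -0.065 with library totals only. Between the mutants, Hba-a2 was 0.019, 0.11 and 0.23 under those 3 settings, and Hbb-bs was -0.011 with DESeq2, -0.010 with RLE scaling and -0.00 with no filter.

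The count of all genes called depended on the setting, and the cause was not tested. For Hand2 cKO against WT it was 2, against 182 by DESeq2, 1 with upper-quartile scaling, 1 with library totals only, 45 with no filter, 49 with the length trend removed, 159 without WT 4 and Hand2 cKO 2, and 1 to 39 leaving out 1 replicate. For Gli2/3 cKO against WT it was 2, against 131 by DESeq2, 21 with no filter, 0 with a robust prior, 57 with the groups compared alone, 10 with the length trend removed, 449 without both libraries, and 0 to 14 leaving out 1 replicate. Between the mutants it was 6, against 144 by DESeq2, 39 with no filter, 20 with the groups alone, 34 with the length trend removed, 510.0 without both libraries, and 2 to 23 leaving out 1 replicate. The ratios and the globin share moved by less than 1 pooled SD of the WT and Hand2 cKO libraries under every alternative run that kept all libraries. Hbb-bt in Gli2/3 cKO 3 rests on 41 counts. In simulated data with this number of libraries, 11.3% of 2-fold changes were recovered in Hand2 cKO against WT and 1.33% in Gli2/3 cKO against WT. The genes changed lay above a floor on mean level, and differences shared within a library were not simulated. The power of the comparisons above is therefore not given by these shares. These shares were not measured for genes as variable as the adult-type globins.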

Other observations

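Other genes of the globin family were at low levels. Hbq1b, a theta globin gene of the alpha cluster, was at 3.05 CPM in WT 4 and 0.497 to 1.35 in the other libraries, so that it shared the high value of WT 4 with the adult-type globins. Its near neighbour Hbq1a had 0 to 9 counts a library. Hbb-bh0, a gene of the beta cluster, went the other way, with 0.53 CPM in WT 4 and 1.74 to 5.23 in the others, from 12 to 198 counts and over a transcript of only 129 bases. The beta cluster genes Hbb-bh2 and Hbb-bh3 had at most 6 and 2 counts a library.

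The remaining genes of the list are globins of other tissues. Cygb, cytoglobin, which is made by fibroblasts and other mesenchymal cells, was at 2.03 to 4.57 CPM, with WT 4 at 3.18. Ngb, neuroglobin, and Mb, myoglobin, were each under 0.5 CPM in every library, with 5 to 19 and 2 to 15 counts. None of the 5 genes of this list that passed the filter was called in any comparison by edgeR, against 0.0114% to 0.0343% of all genes, or by DESeq2, against 0.813% to 1.08%. In Gli2/3 cKO against Hand2 cKO, 1 of the 5 was lower at an unadjusted edgeR p below 0.05, against 2.63% of all genes.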
